A study of Mus musculus with 6 samples.

Results

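The tumour suppressor p53, encoded in the mouse by Trp53, its regulators and its well-established target genes were followed in cells of CT26, a colon carcinoma line of the mouse, with a control guide or a guide against Cdk10. The set held 31 genes, chosen by symbol as Trp53, its regulators and well-established targets in arrest, cell death, repair and metabolism, out of 57010 gene identifiers in the deposited table of counts. All 31 symbols matched 1 identifier each, and 30 of them passed the filter on low counts. The exception was Perp, which encodes a membrane protein that p53 induces in apoptosis, with 1 count in sgControl replicate 2 and 0 in the other 5 libraries, at or under the floor of 3 counts used for detection in a library.

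RNA was sequenced from cells with a control guide (sgControl, 3 libraries) and cells with a Cdk10 guide (sgCdk10, 3 libraries); Cdk10 encodes cyclin-dependent kinase 10. The labels name no treatment, time or allele besides the guides. The labels do not give the guides' target sequences, whether the edited cells were clones or pools, or the state of the Trp53 gene in this line. The study's title concerns antitumor immunity through sensors of nucleic acids, and the labels pose no question about p53.

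p53 is a transcription factor that is kept scarce by MDM2, a ubiquitin ligase, together with its relative MDM4. When DNA is damaged or growth signals are abnormal, p53 is released from MDM2, binds pairs of half-sites in DNA and raises genes for cell cycle arrest, DNA repair, apoptosis and metabolism. Mdm2 is itself such a target, which closes a feedback loop. Control of p53 lies mainly in the stability of the protein, so the Trp53 mRNA does not report on its activity. Many of the targets also answer to other transcription factors.

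Totals ran from 17532202 to 19258309 counts per library. Libraries of a group correlated over genes at 0.994 to 0.996 and libraries of different groups at 0.987 to 0.990. One library, sgControl replicate 3, stood apart from replicates 1 and 2, since chi-square over its degrees of freedom was 4.30 and 4.36 in those comparisons and 1.53 to 1.61 between other replicates. Without it 11 of the genes were higher and 7 lower in sgCdk10, against 10 and 7 with all libraries. Over all genes, 3023 were higher and 3033 lower without it, against 2970 and 2747 with all libraries. Levels are given as CPM, the count scaled by the library total after TMM adjustment, which assumes that most genes do not differ. Cdk10 itself had 21.5, 19.5 and 20.1 CPM in sgControl and 11.3, 12.9 and 10.5 in sgCdk10, or -0.82 as log2 fold change (edgeR adjusted p = 8.4e-09, SE 0.08). Whether replicates were grown as separate cultures is not stated in the labels. The p-values therefore reflect the spread among these libraries alone, which may be technical.

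Markers of leukocytes and endothelium were near 0. The summed level of 11 leukocyte markers lay between 0.679 and 1.13 CPM in sgControl and between 0.608 and 1.14 in sgCdk10, with Cd3e, Cd8a, Adgre1 and Nkg7 at 0 counts in all libraries, and that of 3 endothelial markers was at most 0.110 CPM. Of 11 colon epithelial markers 6 had at most 10 counts in any library, among them Epcam at 0 counts in every library. Krt8, with 4 to 12 counts, was not tested either, so most of the markers of the labelled origin were absent or scarce. Krt18 and Krt20 made up most of what was measured, and both rose in sgCdk10. Of the other 2 that were tested, both under 1 CPM on average, Muc2 fell by 0.93 on the log2 scale (edgeR adjusted p = 0.0305) and Lgals4 was not called (log2 fold change -0.07). The sum of these 11 markers ran from 37.6 to 42.0 CPM in sgControl and from 59.3 to 60.2 in sgCdk10; its part in the differences below was not tested. Of 4 fibroblast markers, whose sum lay between 3833 and 3909 CPM in sgControl and between 3708 and 3868 in sgCdk10, Vim held nearly all, and the scarcer Col1a1 and Pdgfra rose. In bulk RNA, fewer cells that express a gene and less RNA per cell cannot be told apart.

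Promoter sequences are shown first because they set out what a p53 half-site pair looks like in genes of the set that moved in opposite directions. They were taken from RefSeq (GRCm38.p6), from 250 bases before to 50 after each annotated start, and 25 of the 31 genes had an entry, with 34 windows in all. Those without one were Zmat3, Trp53inp1, Perp, Ddb2, Xpc and Rrm2b. Each window was compared with the p53 consensus, 2 half-sites of 10 bases with no spacer; the consensus reads the same on both strands. The windows of 3 genes, Ccng1, Cdkn1a and Rps27l, came within 1 mismatch. Of all 32851 windows, 0.0883% did so. Cdkn1a rose in sgCdk10, Ccng1 rose slightly and Rps27l fell slightly, so the 3 closest matches belonged to genes of both directions. Below, the 250 bases before the start are printed for Cdkn1a and Ccng1, and the pair alone for Rps27l, 5′ to 3′ on the strand of the gene. Capitals mark the pair of half-sites in the first and second sequence, and in the pair of Rps27l the bases that match the consensus.
Cdkn1a, chr17:29090729-29090978, plus strand: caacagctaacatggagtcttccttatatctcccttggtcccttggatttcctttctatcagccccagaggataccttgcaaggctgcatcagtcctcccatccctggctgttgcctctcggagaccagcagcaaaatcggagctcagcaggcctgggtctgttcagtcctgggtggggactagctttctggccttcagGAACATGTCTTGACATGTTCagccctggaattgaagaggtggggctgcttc
Ccng1, chr11:40755287-40755536, minus strand: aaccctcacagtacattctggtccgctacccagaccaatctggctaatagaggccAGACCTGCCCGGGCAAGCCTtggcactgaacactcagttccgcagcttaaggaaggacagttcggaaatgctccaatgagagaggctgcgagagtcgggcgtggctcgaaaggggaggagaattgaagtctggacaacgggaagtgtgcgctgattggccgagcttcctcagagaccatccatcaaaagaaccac
Rps27l, chr9:66946296-66946315, plus strand: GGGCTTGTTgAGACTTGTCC

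The Cdkn1a window belongs to the upstream of 2 annotated starts. Its pair begins 51 bases before that start; the best match at the downstream start had 5 mismatches. In Ccng1 the pair begins 195 bases before the start, and in Rps27l 117 bases before the downstream of 2 annotated starts. By GENCODE M21 the Rps27l pair lies in the first intron of its coding transcripts, and those of Cdkn1a and Ccng1 lie outside the gene, upstream. Within 3 mismatches lay 10 of the 25 genes, or 11 of 34 windows (32.4%), against 6.29% of all windows. A single half-site with no mismatch was found in 12 of the 34 windows (35.3%), against 8.36% of all windows. The 2 Aen windows overlap and share 1 site, and the members were named as targets of p53, so these shares are a description. A looser pattern, the pair of half-site cores CNNGNNNNNNCNNG, occurred in 70.2% of all windows and was not compared between genes. Below, the best pairs of the 7 other genes within 3 mismatches are printed with bases that match the consensus in capitals, to show where each departs from it (5′ to 3′ on the strand of the gene).
Aen, chr7:78895937-78895956, plus strand: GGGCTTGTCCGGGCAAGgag
Gadd45a, chr6:67037632-67037651, minus strand: AAACTAcCTaGAGCTgGCTC
Mdm4, chr1:133025626-133025645, minus strand: AGGtATGCTgtGGCAAGCCT
Polk, chr13:96519409-96519428, minus strand: cAtgTAGCTTGAACTAGCCT
Sesn1, chr10:41887266-41887285, plus strand: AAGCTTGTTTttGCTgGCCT
Tigar, chr6:127109746-127109765, minus strand: GGtCTAGCTCtGGCAAGaCT
Trp53, chr11:69580284-69580303, plus strand: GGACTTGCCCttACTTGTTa

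Of these 7 genes Aen, Mdm4 and Polk rose, Gadd45a, Sesn1 and Trp53 fell, and Tigar was not called. The pairs of Mdm4, Polk and Sesn1 lie at a downstream annotated start, inside the gene. At the upstream start of each of these genes the best match had 6 mismatches. Among genes with a window, 5 of the 10 that rose, 4 of the 6 that fell and 1 of the 9 not called were within 3 mismatches. Some genes have more windows than others, and each was scored by its best. By window, these were 6 of 14 (42.9%), 4 of 8 (50%) and 1 of 12 (8.33%), against 6.29% of all windows. A link between match and call was not tested. The plot of promoter match against fold change shows that both directions occur at 1 and at 3 mismatches. Matches are letters in a short window; known p53 sites of Mdm2 and Gadd45a lie in introns, outside it.

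**Figure D1:**
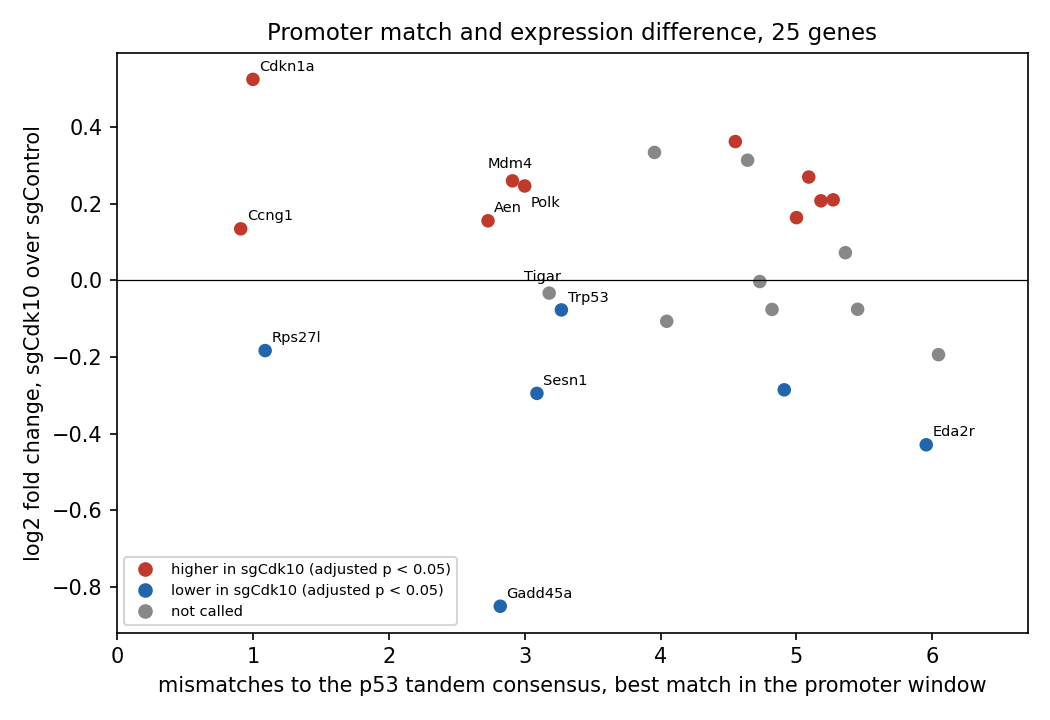
Each point is 1 of the 25 genes with a promoter window. The horizontal axis gives the mismatches of its best pair of half-sites to the p53 consensus (points are spread sideways for legibility), and the vertical axis the log2 fold change, sgCdk10 over sgControl; colours mark edgeR calls. Cdkn1a (0.52), Ccng1 (0.13) and Rps27l (-0.18) sit at 1 mismatch, with values on both sides of 0.

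The set as a whole was divided between rises and falls. Of 30 genes tested 17 (56.7%) passed the quasi-likelihood test of edgeR (Benjamini-Hochberg adjustment over all genes), where 42.5% of all 13442 genes did. Higher in sgCdk10 were 10 (33.3%; 22.1% of all genes) and lower 7 (23.3%; 20.4% of all genes). DESeq2 called 9 higher and 4 lower, with 2191 and 1988 over all genes. Without sgCdk10 replicate 1, edgeR called 10 and 4, with 2537 and 2254 over all genes. With all libraries edgeR called 2970 higher and 2747 lower over all genes, so calls outside the set were fewer in these fits too. The groups of libraries did not overlap in 21 of the 30 (70%), against 51.3% of all genes. The sgCdk10 libraries were above in 11, where 26.6% of all genes were, and below in 10, where 24.8% were. The median fold change was 0.981, against 0.998 over all genes, and the median size of the log2 fold change was 0.19, against 0.16. One of the 30, Gadd45a, passed the test and changed 1.5-fold or more, as 5.8% of all genes did. The members' median level was 28.8 CPM, close to the 26.8 CPM of all genes tested. By role, 2 of 4 in p53 and its regulators rose and 1 fell, with a median of 1.03-fold. In arrest and growth control 4 of 8 rose and 1 fell (median 1.13-fold), and in apoptosis 3 of 9 tested rose and 1 fell (median 0.998-fold). In DNA repair and nucleotide supply 1 of 6 rose and 2 fell (median 0.914-fold), and in metabolism 0 of 3 rose and 2 fell (median 0.820-fold).

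**Figure D2:**
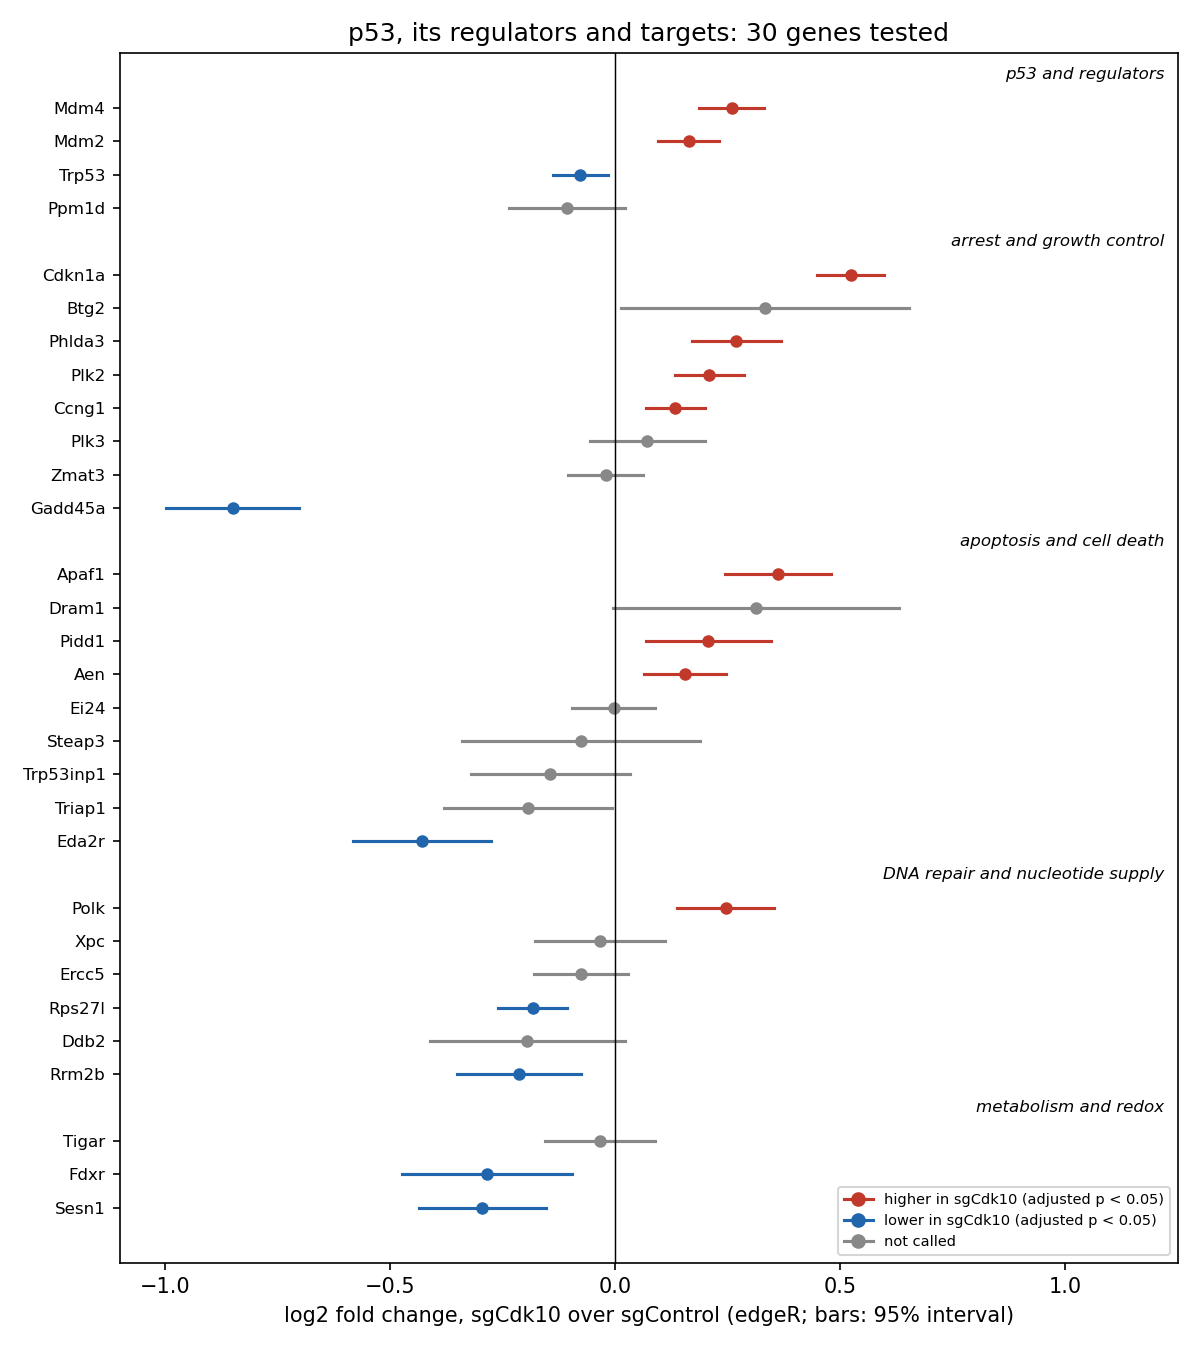
Log2 fold change, sgCdk10 over sgControl, of the 30 genes tested, ordered within 5 roles, with 95% intervals as bars and edgeR calls as colours. Cdkn1a (0.52) lies farthest to the right and Gadd45a (-0.85) farthest to the left, both among genes of arrest and growth control.

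The inhibitor genes Mdm2 and Mdm4 rose, Ppm1d was not called, and Trp53 was lower by a margin that not every test called. Mdm2, the ubiquitin ligase gene, had 112, 115 and 110.2 CPM in sgControl and 124, 128 and 125 in sgCdk10. Every sgCdk10 library was above every sgControl library, and the log2 fold change was 0.16 (edgeR adjusted p = 0.000244, SE 0.03). Mdm4, which encodes the related inhibitor that binds p53 without degrading it, had 108, 108 and 115 CPM in sgControl and 136, 133 and 128 in sgCdk10. Its groups did not overlap either, and it rose by 0.26 on the log2 scale (edgeR adjusted p = 1.8e-06, SE 0.04). The pseudogene Mdm4-ps had at most 4 counts in any library.

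Trp53 (chr11:69580359-69591873, plus strand of GRCm38, 7 merged exons) had 221, 217 and 218 CPM in sgControl and 202, 207 and 212 in sgCdk10. The groups were separate but close, 219 ± 2.09 to 207 ± 4.85 CPM (SD, n = 3), and Trp53 fell by 0.08 on the log2 scale (edgeR adjusted p = 0.0373, SE 0.03). The call was lost in 7 of 14 alternatives, among them DESeq2 (adjusted p = 0.0793) and 4 of the 6 that left out a library: sgControl replicate 1 (adjusted p = 0.108), sgControl replicate 2 (adjusted p = 0.0581), sgCdk10 replicate 1 (adjusted p = 0.2) and sgCdk10 replicate 2 (adjusted p = 0.105). The pseudogene Trp53-ps, which can share reads, had 69 to 83 counts in sgControl and 65 to 79 in sgCdk10, against 3637 to 4082 for Trp53. Ppm1d, the phosphatase WIP1 that switches p53 signalling off, had 21.1, 20.7 and 20.2 CPM in sgControl and 19.5, 18.6 and 19.5 in sgCdk10. Its sgCdk10 libraries were all below those of sgControl, without a call (log2 fold change -0.11, 95% interval -0.24 to 0.02; edgeR adjusted p = 0.176).

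**Figure D3:**
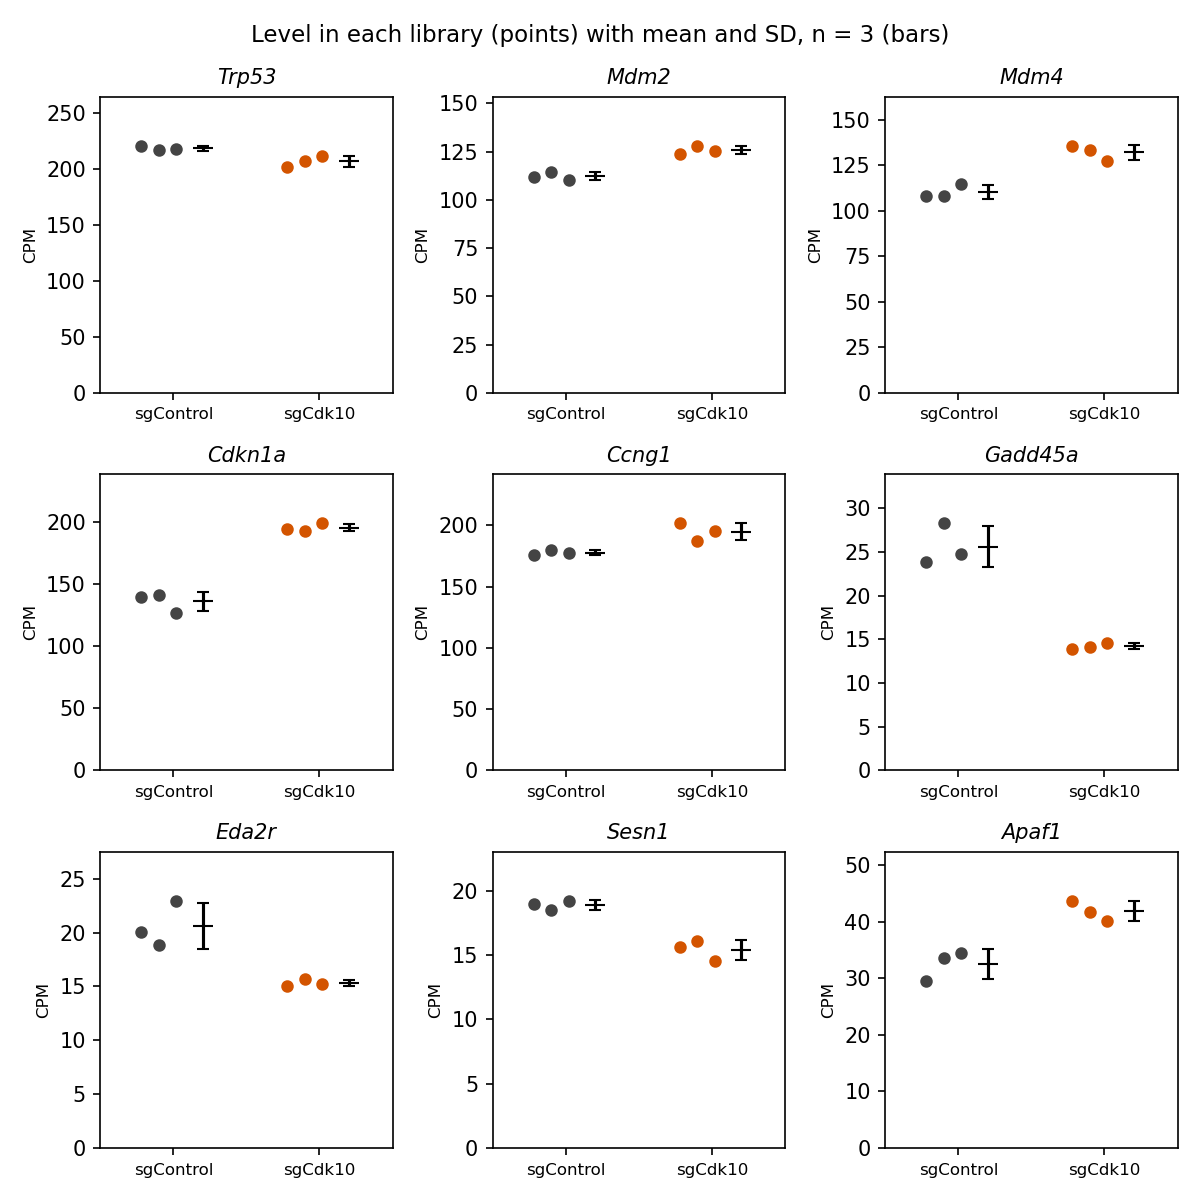
CPM of 9 genes in each of the 6 libraries (points), with the mean and SD of 3 libraries per group (bars); each vertical axis starts at 0. The 9 genes shown are all among those called, and their groups do not overlap, so the panels do not stand for the set. Groups did not overlap in 21 of the 30 genes tested and in 51.3% of all genes. Cdkn1a was at 127 to 141 CPM in sgControl and 193 to 198 in sgCdk10, and Gadd45a at 23.8 to 28.3 and 13.9 to 14.5.

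The largest rise and the largest fall of the set were both in genes of cell cycle arrest. Cdkn1a (chr17:29090976-29100727, plus strand of GRCm38, 4 merged exons) encodes p21, the inhibitor of cyclin-dependent kinases that carries much of the arrest by p53. It had 139, 141 and 127 CPM in sgControl and 194, 193 and 198 in sgCdk10, and the lowest sgCdk10 library exceeded the highest sgControl library. The mean went from 136 ± 7.83 to 195 ± 3.06 CPM (SD, n = 3), 1.44-fold (95% interval 1.37 to 1.51; edgeR adjusted p = 3.4e-11). A short transcript annotated on the opposite strand, AC167363.2, overlaps 7.68% of its exon bases but had at most 14 counts in any library. Gadd45a (chr6:67035096-67037457, minus strand, 2 merged exons), a gene of growth arrest and DNA damage, had 23.8, 28.3 and 24.7 CPM in sgControl and 13.9, 14.2 and 14.5 in sgCdk10. All sgCdk10 libraries were low and close together, and the change was 0.555-fold (95% interval 0.501 to 0.614; edgeR adjusted p = 7.8e-10). Its exons share 337 bases (19.1%) with E230016M11Rik on the opposite strand, whose counts were 111, 114 and 126 in the sgControl libraries against 48, 45 and 51. That gene fell by 1.32 on the log2 scale (edgeR adjusted p = 2.2e-08, SE 0.13). The strand setting of the counting is not given in the sources used here, so reads within the shared bases cannot be told apart. Reads in the rest of the Gadd45a exons lie outside this overlap. The part of the shared bases in the fall of Gadd45a was not tested.

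Other genes of arrest rose by smaller amounts. Ccng1, the gene of cyclin G1, had 176, 179 and 178 CPM in sgControl and 202, 188 and 195 in sgCdk10 and rose by 0.13 on the log2 scale (edgeR adjusted p = 0.0013). Phlda3, an inhibitor of AKT, had 50.99, 45.3 and 47.1 CPM in sgControl and 55.7, 57.7 and 59.3 in sgCdk10 and rose by 0.27 (edgeR adjusted p = 6.8e-05). Plk2, a polo-like kinase, had 78.4, 74.9 and 76.5 CPM in sgControl and 89.4, 90.03 and 86.4 in sgCdk10 and rose by 0.21 (edgeR adjusted p = 5.9e-05). In these 3 genes the groups were separate. Plk3, a relative of Plk2, had 30.4, 32.5 and 30.5 CPM in sgControl and 31.2, 36.4 and 30.6 in sgCdk10, with overlapping groups and a log2 fold change of 0.07 (95% interval -0.06 to 0.20). Zmat3, an RNA-binding protein gene, had 67.6, 67.8 and 68.5 CPM in sgControl and 68.3, 68.4 and 64.3 in sgCdk10, with a 95% interval of the log2 fold change from -0.10 to 0.06. Btg2, an antiproliferative gene, was scarce, with 3.39, 3.05 and 4.41 CPM in sgControl and 4.86, 3.99 and 4.83 in sgCdk10. Its log2 fold change of 0.33 (edgeR adjusted p = 0.0869) became 0.50 (adjusted p = 0.0116) without sgControl replicate 3, whose value lay within the sgCdk10 range.

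Genes of apoptosis were mixed. Apaf1, the core of the apoptosome that activates caspases, had 29.5, 33.6 and 34.5 CPM in sgControl and 43.6, 41.7 and 40.1 in sgCdk10. It rose by 0.36 on the log2 scale (edgeR adjusted p = 1.5e-05, SE 0.06) with no overlap between groups. Aen, a nuclease of apoptosis, had 57.6, 60.1 and 54.6 CPM in sgControl and 65.2, 62.7 and 63.9 in sgCdk10 and rose by 0.16 (edgeR adjusted p = 0.00594). Pidd1, a death domain protein of the PIDDosome, had 19.9, 18.9 and 19.1 CPM in sgControl and 21.8, 24.5 and 20.8 in sgCdk10 and rose by 0.21 (edgeR adjusted p = 0.0154). The call for Pidd1 was lost with DESeq2 (adjusted p = 0.0997), with the GC and length correction (log2 fold change 0.12, adjusted p = 0.156) and without sgCdk10 replicate 2 (0.14, adjusted p = 0.149). Eda2r, a receptor of the TNF receptor family that p53 induces, had 20.05, 18.8 and 22.95 CPM in sgControl and 15.03, 15.7 and 15.3 in sgCdk10. Every sgCdk10 library was below every sgControl library, and Eda2r fell by 0.43 on the log2 scale (edgeR adjusted p = 4.8e-05, SE 0.07).

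The remaining 5 tested genes of this role were not called. Trp53inp1, which acts in autophagy and cell death, had 13.7, 13.3 and 16.3 CPM in sgControl and 13.4, 12.1 and 13.7 in sgCdk10, with overlapping groups. Triap1, an inhibitor of apoptosis, had 10.7, 10.5 and 12.1 CPM in sgControl and 9.45, 9.23 and 10.4 in sgCdk10, all lower in sgCdk10 (log2 fold change -0.19; edgeR adjusted p = 0.089). Dram1, a lysosomal protein gene of autophagy, had 2.77, 3.22 and 3.20 CPM in sgControl and 4.09, 3.76 and 3.59 in sgCdk10, all higher in sgCdk10 (log2 fold change 0.31; edgeR adjusted p = 0.107). In both of these scarce genes the groups did not overlap, and neither was called. Ei24, a protein of the endoplasmic reticulum, had 53.9 to 58.1 CPM in sgControl and 54.3 to 56.01 in sgCdk10. Its groups overlapped, and its 95% interval ran from -0.10 to 0.09 on the log2 scale. Steap3, a metalloreductase of iron uptake, had 4.47 to 5.24 CPM in sgControl and 4.64 to 4.83 in sgCdk10 (95% interval -0.34 to 0.19).

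Among genes of DNA repair and nucleotide supply the translesion polymerase was the one that rose. Polk, the gene of DNA polymerase kappa, had 28.3, 29.5 and 30.7 CPM in sgControl and 34.4, 35.02 and 35.4 in sgCdk10, with separate groups and a rise of 0.25 on the log2 scale (edgeR adjusted p = 0.000486, SE 0.05). Rrm2b, the p53-inducible subunit of ribonucleotide reductase, had 24.6, 26.1 and 26.2 CPM in sgControl and 19.7, 22.5 and 24.1 in sgCdk10. The highest sgCdk10 library came close to the lowest of sgControl, and Rrm2b fell by 0.21 (edgeR adjusted p = 0.0122). Without sgCdk10 replicate 1 the log2 fold change was -0.14 (adjusted p = 0.137), and DESeq2 did not call it (adjusted p = 0.0674).

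Rps27l, a relative of a ribosomal protein gene, had 92.2, 94.6 and 98.8 CPM in sgControl and 85.95, 82.6 and 82.98 in sgCdk10 and fell by 0.18 on the log2 scale (edgeR adjusted p = 0.000282). With the GC and length correction its log2 fold change was -0.10 (adjusted p = 0.0168). Its close paralog Rps27, with 4264 to 4624 counts in sgControl and 3699 to 3835 in sgCdk10, fell by 0.26 (edgeR adjusted p = 3.1e-07), and reads may be divided between them. The nucleotide excision repair genes were not called. Ddb2, the damage-recognition subunit, had 8.41, 7.86 and 8.28 CPM in sgControl and 6.91, 6.55 and 7.95 in sgCdk10 (log2 fold change -0.20; edgeR adjusted p = 0.142). Acp2 on the opposite strand, which shares 23.8% of the exon bases of Ddb2, fell by 0.25 (edgeR adjusted p = 8.8e-05), so the Ddb2 counts are less certain. Xpc, another damage sensor, had 15.4 to 16.3 CPM in sgControl and 14.96 to 16.02 in sgCdk10. Ercc5, an endonuclease of this pathway, had 35.3 to 36.4 and 32.5 to 34.8 CPM, lower in sgCdk10 in every library without a call (edgeR adjusted p = 0.242).

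Genes of metabolism and redox control were lower or not called. Sesn1, sestrin 1, which restrains mTORC1, had 18.97, 18.5 and 19.2 CPM in sgControl and 15.6, 16.1 and 14.5 in sgCdk10. The groups were well apart, and Sesn1 fell by 0.29 on the log2 scale (edgeR adjusted p = 0.00109, SE 0.07). Fdxr, ferredoxin reductase of the mitochondria, had 13.6, 13.7 and 11.1 CPM in sgControl and 9.94, 10.6 and 10.96 in sgCdk10 and fell by 0.29 (edgeR adjusted p = 0.0139). The groups nearly touched, since sgControl replicate 3 was close to sgCdk10 replicate 3. DESeq2 did not call Fdxr (adjusted p = 0.0803), nor did the fits without sgControl replicate 1 (adjusted p = 0.0684), sgControl replicate 2 (adjusted p = 0.0801) or sgCdk10 replicate 1 (adjusted p = 0.0752). Tigar, a fructose bisphosphatase that slows glycolysis, had 27.7, 25.1 and 25.1 CPM in sgControl and 25.6, 24.8 and 25.7 in sgCdk10, with overlapping groups and a 95% interval of the log2 fold change from -0.15 to 0.09.

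**Figure D4:**
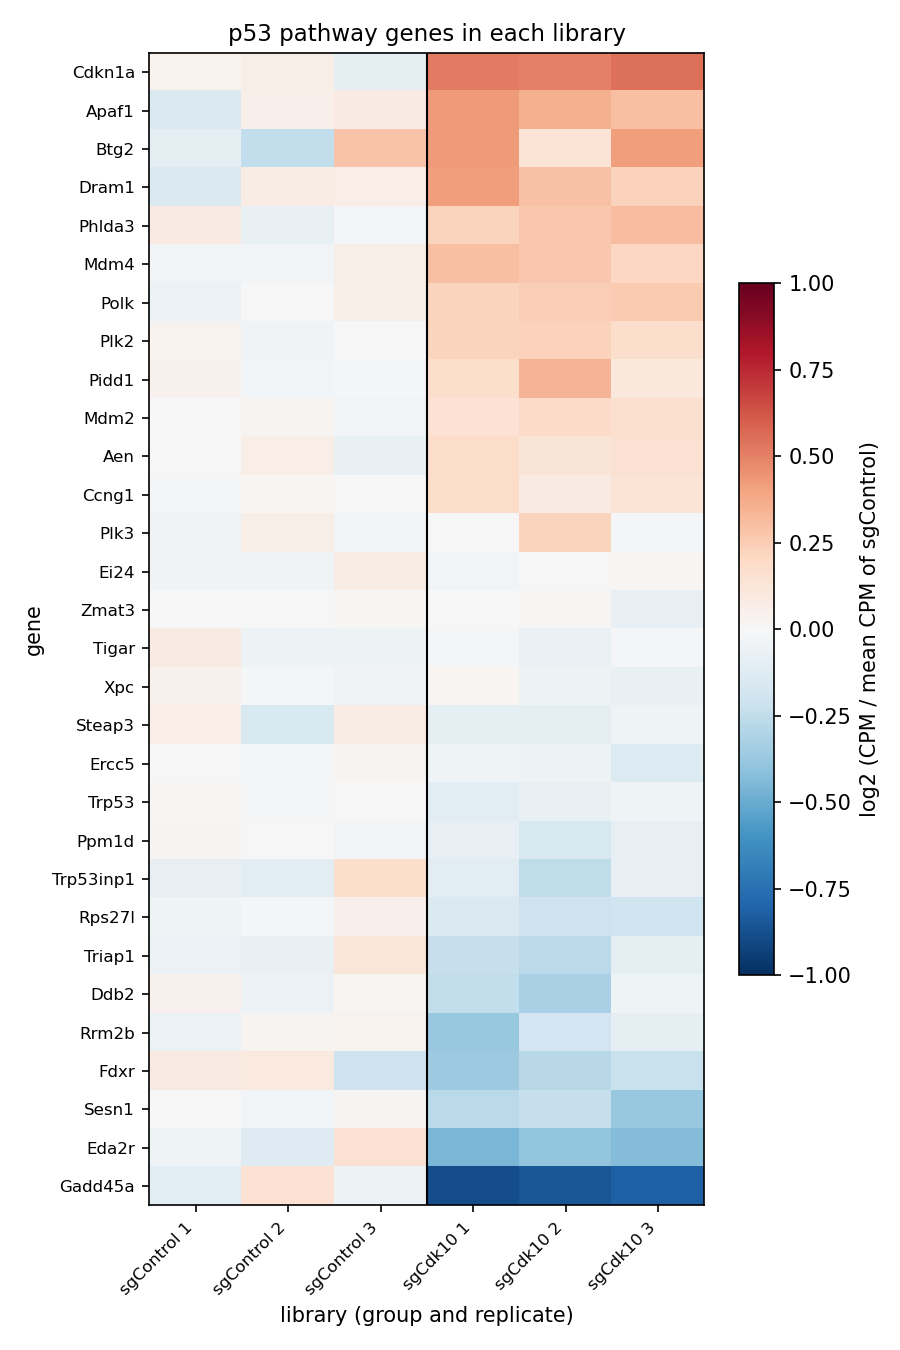
Log2 of the CPM of each library over the mean CPM of sgControl, for the 30 genes tested (rows, ordered by fold change) in the 6 libraries (columns). The sgCdk10 columns are red for Cdkn1a at the top and blue for Gadd45a at the bottom, while rows between Plk3 and Xpc stay near 0 in most libraries.

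Per length of merged exons, the set covered a wide range of levels. In sgControl, Rps27l was highest at 117 RPKM (CPM per kilobase of exon), followed by Trp53 at 54.1, Ccng1 at 50.5, Cdkn1a at 38.2, Phlda3 at 30.7 and Mdm2 at 22.1. In sgCdk10, Ccng1 (55.5 RPKM) and Cdkn1a (54.9) stood above Trp53 (51.2). The libraries of Ccng1 and Cdkn1a overlapped there, from 53.4 to 57.4 and from 54.2 to 55.9 RPKM, so their order was not resolved. In sgControl the ranges of Trp53 (53.6 to 54.6 RPKM), Ccng1 (49.97 to 51.1) and Cdkn1a (35.7 to 39.7) were separate. Mdm2 was above Mdm4 in both groups, at 22.1 and 7.46 RPKM in sgControl and 24.7 and 8.94 in sgCdk10. Merged exons count every annotated isoform, so the level of a gene with long minor isoforms, such as Mdm4 with 14798 exon bases, is understated on this scale.

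Standard errors were larger in the scarcer genes. The genes were split at Fdxr, the called gene with the lowest mean level, so 0 of 5 below it were called by construction. These 5, Dram1, Btg2, Steap3, Ddb2 and Triap1 at 3.44 to 10.4 CPM, had standard errors of 0.09 to 0.15 on the log2 scale. The other 25, from Fdxr upward, had standard errors of 0.03 to 0.09, and 17 of 25 were called. A log2 fold change of 0.33 in Btg2 was not called by edgeR, while one of -0.08 in Trp53 was.

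Other genes of the pathway, in lists that do not include the genes above, were also divided. Of 30 further targets of p53, 25 were tested, of which 8 rose (32%; 22.1% of all genes) and 4 fell (16%; 20.4% of all genes), with a median of 0.987-fold. Sulf2, a heparan sulfatase, rose by 0.77, the receptor kinase gene Epha2 by 0.44, Pml, the scaffold of nuclear bodies, by 0.40 and the epoxide hydrolase gene Ephx1 by 0.32 on the log2 scale. Sesn2, sestrin 2, fell by 0.69 (edgeR adjusted p = 5.0e-13, SE 0.04), as did the apoptosis genes Bbc3 (PUMA) by 0.40 and Bax by 0.14, and Abhd4 by 0.18; the largest edgeR adjusted p of these 8 genes was 0.0133. Sesn2 had 95.7, 95.1 and 89.9 CPM in sgControl and 58.6, 57.7 and 57.7 in sgCdk10. Bbc3 had 15.6, 14.5 and 15.1 CPM in sgControl and 11.4, 10.99 and 11.95 in sgCdk10, with separate groups in both. Bax shares 12.2% of its exon bases with Gm45808 on the same strand. Within the same list Tnfrsf10b rose by 0.38 (edgeR adjusted p = 1.2e-05) and Bcl2l1 by 0.15 (edgeR adjusted p = 0.00097), also genes of apoptosis. Bbc3 and Bax fell while these and Apaf1 rose, so both directions occurred, as among the other genes of apoptosis above. The 5 not tested were Pmaip1, Fas, Gdf15, Pltp and Cpt1c, which had at most 9 counts in any library.

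Of 26 kinases and modifiers of p53, 23 were tested, of which 10 rose (43.5%; 22.1% of all genes) and 4 fell (17.4%; 20.4% of all genes), with a median of 1.06-fold. Trp53bp1, the gene of the damage response scaffold 53BP1, rose by 0.38, the methyltransferase gene Setd7 by 0.34, the p53 kinase gene Hipk2 by 0.33 and Twist1 by 0.25 on the log2 scale. The deacetylase gene Sirt1 fell by 0.55, the acetyltransferase gene Kat5 by 0.34, the ubiquitin ligase gene Rchy1 by 0.33 and the checkpoint kinase gene Chek1 by 0.25. Of these 8 genes Chek1 had the largest edgeR adjusted p, 0.0012. Opposite-strand genes share 12.1% of the exon bases of Kat5, 18% of Rchy1 and 15% of Trp53bp1, so their counts are less certain. Cdkn2a, whose product ARF inhibits MDM2, was at 0 counts in all 6 libraries, as was Trp73, a relative of p53. The other relative, Trp63, had at most 8 counts. A count of 0 of the smallest library total allows up to 3 counts, or 0.171 CPM.

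Genes that p21 represses through the DREAM complex, which acts on cell cycle genes, were a further list of 24, all tested. Of these 8 rose (33.3%; 22.1% of all genes) and 6 fell (25%; 20.4% of all genes), with a median of 1.04-fold. The rises with the smallest p were those of Kif20a (0.19), Aurka (0.18), Cenpe (0.15) and Bub1 (0.21) on the log2 scale, all genes of mitosis. Mybl2, a transcription factor of the cell cycle, fell by 0.29, Nek2 by 0.25, Ube2c by 0.16 and the cyclin gene Ccnb1 by 0.15. Of these 8 genes Ccnb1 had the largest edgeR adjusted p, 0.000415. Exons of Kif20a and Ube2c overlap those of opposite-strand genes by 29.3% and 22.8%. The 24 values lay between -0.29 and 0.21, a narrower range than that of the p53 targets. Their median level was 148 CPM, against 28.8 CPM in the first set and 29.2 CPM in the further targets. The part of level in the narrower range was not tested. The groups of libraries did not overlap in 20 of the 24 (83.3%), against 51.3% of all genes. They did not overlap in 15 of 25 further targets (60%) and in 16 of 23 kinases and modifiers (69.6%). All genes tested had a median level of 26.8 CPM, and the part of level in these shares was not tested either. The plot of the 4 lists shows each of them spread on both sides of 0.

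**Figure D5:**
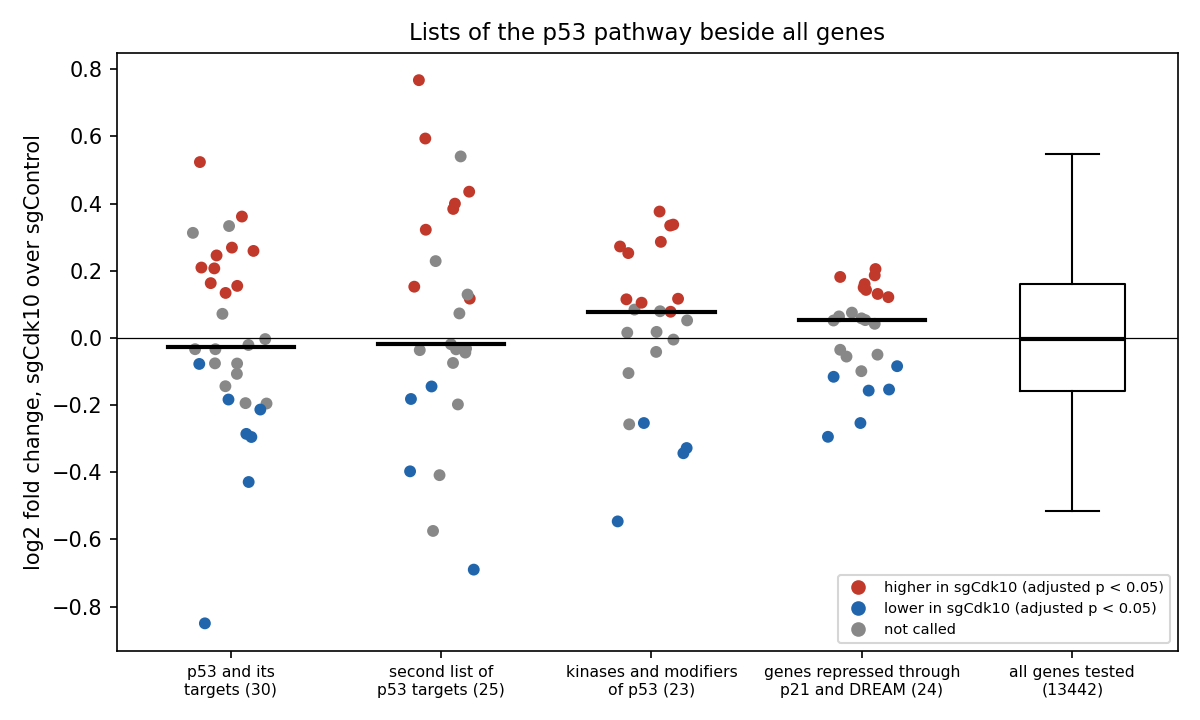
Log2 fold change, sgCdk10 over sgControl, of each tested gene in 4 lists (points, coloured by edgeR call, with the median as a bar) and of all 13442 genes tested (box from the lower to the upper quartile, whiskers from percentile 5 to percentile 95). Medians lie between -0.03 and 0.08 in the 4 lists, near that of all genes.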

How the data were processed

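RNA-seq libraries of CT26 cells, 3 sgControl and 3 sgCdk10, were grouped by their titles. The authors deposited counts per gene, whole numbers without normalization. Per the submitters' processing notes, the build was mm10 and the tools were featureCounts 2.0.3, HISAT2 2.2.1 and DESeq2 1.40.2. Annotation release and strand setting: not given in the sources used here. Of 57010 identifiers 52081 matched a symbol in GENCODE M21 (GRCm38), whose merged exons gave lengths.

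filterByExpr (minimum count 10, minimum total 15) kept 13442 genes. They were tested with edgeR 4.0.16 in R 4.3.3 (TMM, robust quasi-likelihood test, group only), with Benjamini-Hochberg adjustment over all genes and a threshold of 0.05. SE is the size of the log2 fold change over the square root of F. The code was tested on simulated data. Alternatives were DESeq2 size factors, DESeq2 1.42.0 on the same genes, limma-voom (limma 3.58.1), no filter, non-robust dispersions, a filter at 1 CPM throughout either group, a replicate block, a GC and length correction (loess, span 0.5) and leaving out each library. A total of 17532202 to 19258309 counts per library puts 3 counts, the floor for detection, at 0.156 to 0.171 CPM. Promoters came from RefSeq (GRCm38.p6).

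The genes and lists were chosen with earlier results of these data known. Named were all 31 genes, Cdk10, and in each further list the 4 with the smallest p per direction among those called and any with a log2 fold change of at least 1 in size, of which there was none. Tnfrsf10b and Bcl2l1 were also named, outside this rule, as called genes of apoptosis among the further targets.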

Additional observations from a re-analysis of the deposited data

How the results depend on the processing

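Of 17 calls among the 30 genes tested, 13 kept their sign and their call in all 14 alternatives: Mdm2, Mdm4, Cdkn1a, Ccng1, Sesn1, Gadd45a, Phlda3, Plk2, Aen, Eda2r, Polk, Rps27l and Apaf1. The other 4, Trp53, Fdxr, Pidd1 and Rrm2b, lost theirs in 7, 4, 3 and 2 alternatives. The number of genes higher stayed between 9 and 11. The number lower was 7, and with all libraries it was 4 with DESeq2, 6 with no filter, 6 with the replicate block and 7 in the other 5 alternatives. With a library left out it ran from 4, without sgCdk10 replicate 1, to 7. Over all genes the number lower was 2747 with edgeR on all libraries, 1988 with DESeq2 and 2254 without sgCdk10 replicate 1. The cause was not tested. By the labels, libraries of the 2 groups share only a replicate number. Deviations of same-numbered libraries from their group means correlated at 0.025, -0.057 and -0.096. Other pairs were not compared, so these values do not show whether same-numbered libraries were handled together. With the replicate block, 10 genes were higher and 6 lower, since Trp53 was no longer called (log2 fold change -0.08, adjusted p = 0.0562); it changed no other call among the 30. Of the 13 genes not called, 12 were called in no alternative and Btg2 in 1. With a library left out, 4 genes near 0 changed sign, none of them called: Zmat3 ran from -0.0352 to 0.0091 (without sgCdk10 replicate 3), Plk3 from -0.0082 (without sgCdk10 replicate 2) to 0.12, Tigar from -0.0614 to 0.0152 (without sgControl replicate 1), and Ei24 from -0.0227 to 0.0298 (without sgControl replicate 3), with 0.0091 without sgCdk10 replicate 1. The 5 genes scarcer than the lowest called gene had standard errors of 0.09 to 0.15 on the log2 scale. The part of depth in this was not tested. The strand setting of the counting is unknown, so reads of opposite-strand genes may be included.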
